A study of Mus musculus with 11 samples.

Results

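Matrix-degrading and shedding proteases were followed as 7 genes in Tregs, regulatory CD4 T cells defined by Foxp3: Mmp9, Adam8, Adam10, Adam17, Adam19 and the inhibitors Timp2 and Timp1. They were looked up by symbol among the 10992 genes of the deposited table, and 6 of the 7 were found and passed the filter on low values. Timp1 had no row and was not analysed here. The set was chosen by measured values of these same libraries: Mmp9 was taken for its high level in fat and Timp2 for its difference between tissues in the effect of genotype. For these genes, comparisons between tissues, the interaction, and all values of Timp2 are therefore descriptions without a test.

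Live CD3+ CD4+ Foxp3+ cells were sorted from visceral adipose tissue (VAT) or spleen of male mice aged 25 weeks and measured by bulk RNA sequencing. The 4 groups were 3 VAT KO and 3 VAT WT libraries, and 2 spleen KO and 2 spleen WT libraries (replicates 2 and 3 of each). KO mice were Foxp3-YFPcre Srebf2-flox/flox, and WT mice were Foxp3-YFPcre Srebf2-WT/WT. Mice of both genotypes thus carried Cre recombinase under Foxp3 control, and the floxed gene was open to deletion in cells with Foxp3 expression. The product of Srebf2, SREBP2, switches on the genes of cholesterol synthesis and uptake. The question was what its loss changed in adipose Tregs. The labels do not tie the libraries of a group to different mice. Each p-value therefore measures the spread between these samples alone, and that spread may be technical.

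Metalloproteinases cut proteins with a zinc ion in their active site. Matrix metalloproteinases such as MMP9 are secreted as inactive precursors and digest collagen and other matrix proteins, which lets leukocytes cross basement membranes. ADAM proteases sit in the cell membrane, where ADAM10 and ADAM17 release the outer parts of receptors, cytokines and adhesion molecules. TIMP proteins bind the active site of matrix metalloproteinases and block it, and TIMP2 also takes part in the activation of MMP2 at the cell surface. Tregs of visceral fat are known for amphiregulin (Areg) and the IL-33 receptor ST2 (Il1rl1), and are kept by the nuclear receptor PPARgamma.

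Values are RPKM, read values scaled for gene length and sequencing depth, which allows levels of different genes to be compared. Differences are given on the log2(RPKM + 1) scale, on which low genes appear to change less than they do. Read depth was unknown. RPKM summed to between 185319 and 210778 per library, and 9551 to 9774 genes reached 1 RPKM. As a check of the labels, Srebf2 RPKM lay between 0.263 and 1.23 in VAT KO and between 15.6 and 30.5 in VAT WT. It lay at 2.59 and 1.59 in spleen KO and at 10.5 and 23.2 in spleen WT. Foxp3 ranged from 13.3 to 16.4 RPKM in VAT and from 6.97 to 8.87 in spleen, and Cd3e, a chain of the T cell receptor complex, from 141 to 157 in VAT and from 190 to 215 in spleen. In these bulk samples, fewer cells of a type and less RNA per cell cannot be told apart.

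For the members that differed between the tissues, the 250 bases before an annotated start were read from RefSeq (GRCm38.p6, the mm10 assembly), which held promoter entries for 6 of the 7 genes and not for Mmp9. Timp2, Adam8 and Adam19 are shown because they stood on opposite sides of the tissue difference: Timp2 was lower in fat, and Adam8 and Adam19 were higher. Capitals mark matches on either strand to the AP-1 letters TGANTCA, the cyclic AMP element TGACGTCA, the GC box GGGCGG or a sterol response element, which SREBP2 binds, searched as the letters TCACNCCAC. No matches overlapped each other in these 3 windows. Each is written 5′ to 3′ on the strand of its gene.
Timp2, chr11:118355412-118355661, minus strand: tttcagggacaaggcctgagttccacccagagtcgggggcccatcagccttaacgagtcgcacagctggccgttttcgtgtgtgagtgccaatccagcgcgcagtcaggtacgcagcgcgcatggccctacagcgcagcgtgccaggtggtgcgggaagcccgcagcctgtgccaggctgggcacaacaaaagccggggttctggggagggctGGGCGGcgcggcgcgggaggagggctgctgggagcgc
Adam8, chr7:139992563-139992812, minus strand: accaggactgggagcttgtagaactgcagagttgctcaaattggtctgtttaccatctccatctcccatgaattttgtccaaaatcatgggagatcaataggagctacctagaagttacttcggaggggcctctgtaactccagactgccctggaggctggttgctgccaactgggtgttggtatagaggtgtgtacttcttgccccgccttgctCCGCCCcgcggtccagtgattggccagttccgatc
Adam19, chr11:46055734-46055983, plus strand: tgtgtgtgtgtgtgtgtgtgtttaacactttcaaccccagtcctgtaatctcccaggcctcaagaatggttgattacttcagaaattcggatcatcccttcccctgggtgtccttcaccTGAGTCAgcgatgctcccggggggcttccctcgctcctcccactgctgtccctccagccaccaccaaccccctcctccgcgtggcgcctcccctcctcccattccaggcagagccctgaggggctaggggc
The Timp2 window held 1 GC box that began 37 bases before the start, and the Adam8 window held 1 that began 35 bases before it. The Adam19 window, entry 2 of 3 annotated starts, held 1 AP-1 match that began 131 bases before the start, and the windows of the other two held none of these motifs. The Adam8 start belongs to a transcript that begins within the annotated span of the gene. None of the 3 printed windows held the sterol element or the cyclic AMP element. Over all 32851 promoter entries, the same 250 bases held the AP-1 letters in 6.75%, the GC box in 32.7%, the cyclic AMP element in 1.55% and the sterol element in 1.05%. A match describes these letters and does not show binding.

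Mmp9 encodes gelatinase B, a secreted protease of collagen IV and gelatin (Entrez 17395; mm10 chromosome 2, 164940326 to 164955850). It had 135, 115 and 112 RPKM in VAT KO and 129, 217 and 137 RPKM in VAT WT. In spleen it had 3.84 and 1.95 RPKM in KO and 0.387 and 4.93 RPKM in WT. All 6 VAT libraries lay far above all 4 spleen libraries, a pattern without overlap that 20% of tested genes had in KO and 18.1% in WT, while the genotypes overlapped in both tissues. Mmp9 was the highest of the 6 measured genes in every VAT library, where 97.7% to 99.1% of the genes in the table were at or below it. In spleen it was the lowest of the 6 in 3 libraries, and Adam8 was the lowest in spleen WT replicate 3. The difference of VAT minus spleen was 5.01 ± 0.45 in KO and 5.78 ± 0.45 in WT (log2, SE), given as a description, and ranked 11th and 12th in size among 10429 tested genes. With 1 spleen WT library left out at a time, the WT difference stood at 4.73 without replicate 2, the library at 0.387 RPKM, and at 6.83 without replicate 3.

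Loss of Srebf2 did not move Mmp9 past the threshold in fat. It averaged 121 ± 12.4 RPKM in VAT KO and 161 ± 48.8 RPKM in VAT WT (SD, n = 3 each), a log2 difference of -0.37 ± 0.41 with a 95% interval from -1.25 to 0.51 (limma adjusted p = 0.975; exact permutation p = 0.2, two-sided). The wide spread in WT came with 1 library, VAT WT replicate 2 at 217 RPKM, without which the difference was -0.14. The summed level of 6 measured B cell markers was also highest in that library, at 199 RPKM against 53.3 to 105 in the other 5 VAT libraries, and its part in the Mmp9 value was not tested. In spleen, Mmp9 averaged 2.90 ± 1.34 RPKM in KO and 2.66 ± 3.21 RPKM in WT (SD, n = 2 each; log2 difference 0.40 ± 0.50, limma adjusted p = 0.801). That spleen value turned to -0.65 without spleen WT replicate 2 and to 1.45 without replicate 3.

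Neutrophils and macrophages are known to make Mmp9 too. None of the 10 neutrophil markers looked up, among them S100a8, S100a9 and Ly6g, had a row in the table, whose filter is not given in the sources used here. Of 15 myeloid markers 4 had a row. The 4 markers summed to between 12.3 and 45.6 RPKM in VAT and between 179 and 241 in spleen, and nearly all of each sum was Ctss, the protease cathepsin S. Csf1r and Adgre1 reached no more than 0.828 and 1.45 RPKM in any library. Fcer1g had its highest value, 3.95 RPKM, in VAT KO replicate 3, and lay between 0.854 and 2.86 RPKM in spleen. Their part in the Mmp9 level was not tested.

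**Figure D1:**
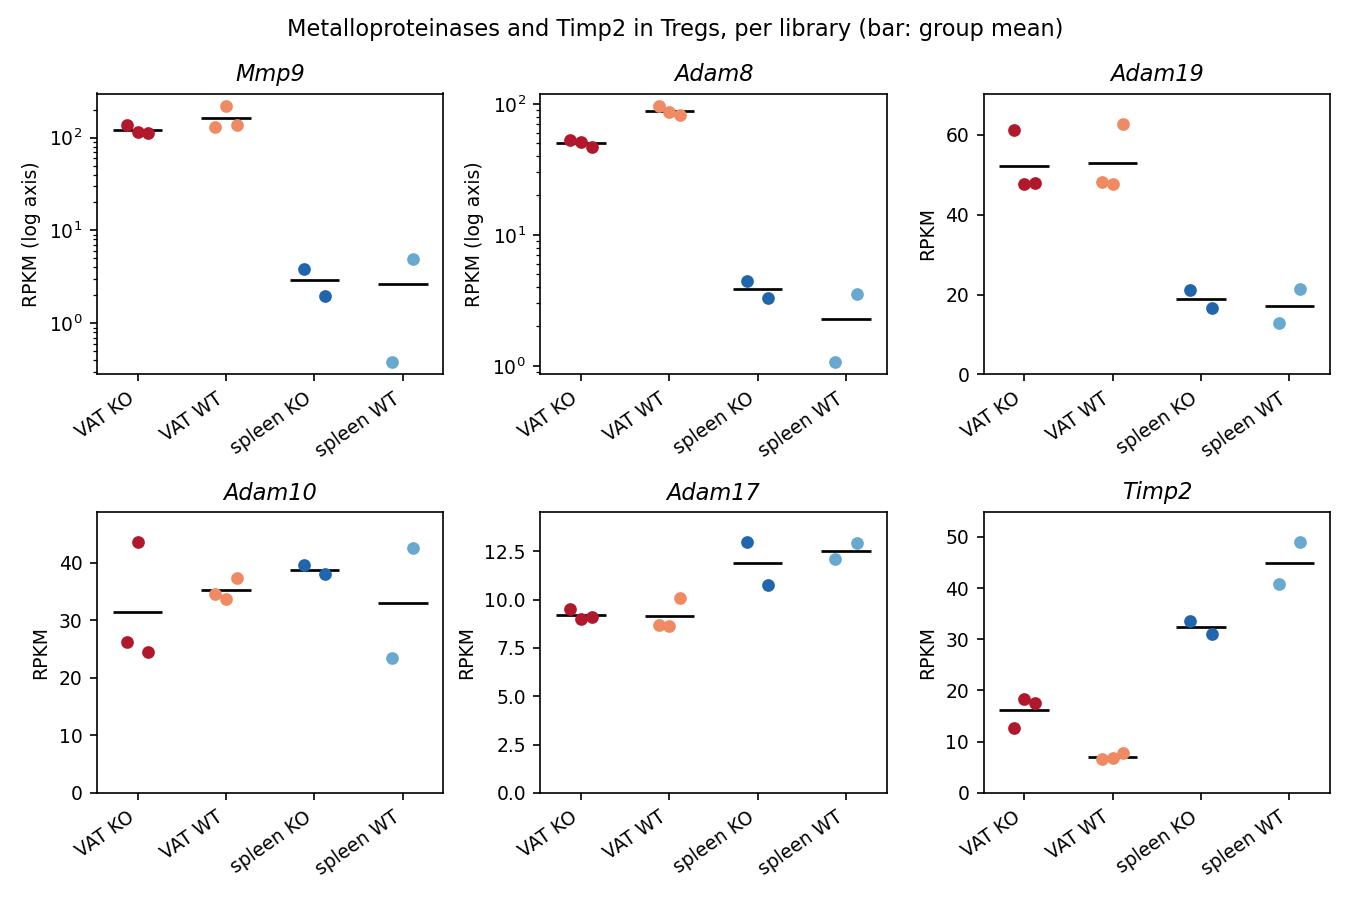
RPKM of the 6 measured genes in each library (points), with the mean of each group (bars), for VAT KO, VAT WT, spleen KO and spleen WT. The axes of Mmp9 and Adam8 are logarithmic and the others start at 0. Mmp9, Adam8 and Adam19 were higher in every VAT library than in every spleen library. Timp2 was lower, and so was Adam17 by a small margin. Groups did not overlap in the higher direction for 20% of tested genes in KO and 18.1% in WT. In the lower direction the shares were 30.4% and 31%.

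Adam8 encodes a membrane protease of leukocytes that cuts adhesion molecules (Entrez 11501; chromosome 7, 139978932 to 139995207). It had 53.4, 50.9 and 47.0 RPKM in VAT KO and 95.8, 86.2 and 81.5 RPKM in VAT WT. Every VAT KO library lay below every VAT WT library, as was the case for 6.16% of tested genes. The means were 50.4 ± 3.19 RPKM in VAT KO and 87.9 ± 7.25 RPKM in VAT WT (SD, n = 3 each). The log2 difference of -0.79 ± 0.23, with a 95% interval from -1.29 to -0.28, did not pass over all genes (limma adjusted p = 0.317; unadjusted p = 0.0052). The exact permutation test gave p = 0.1, two-sided, the smallest that 3 against 3 libraries allow. The call depended on how the spread was estimated: with the 6 VAT libraries alone the same difference passed (limma adjusted p = 0.013), as it did without spleen WT replicate 2 (0.0146), without replicate 3 (0.0162) or with sample weights (0.0436). Over all alternatives the adjusted p ranged from 0.013 to 0.803. The 5 markers of VAT Tregs (Pparg, Il1rl1, Klrg1, Gata3 and Areg) summed to 1553, 1444 and 1380 RPKM in VAT KO and to 2005, 1803 and 1895 RPKM in VAT WT, without overlap. Most of each sum was Klrg1 and Areg, with means of 603 and 511 RPKM for KO in fat and 883 and 578 for WT. Areg overlapped between genotypes. Pparg, Il1rl1, Klrg1 and Gata3 each did not, a pattern that 6.16% of tested genes had in this direction. All 5 differences lay below 0. None of the 5 passed between genotypes in VAT (limma), with 2 at an unadjusted p under 0.05, while 0.422% of all tested genes passed there. In spleen, where Adam8 lay above 0, 2 of the 5 lay above 0, with Il1rl1 at 0.72, and 3 lay below, with a median of -0.21. The part of these markers in the Adam8 value was not tested.

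In spleen, Adam8 had 4.41 and 3.31 RPKM in KO and 1.08 and 3.52 RPKM in WT, and the genotypes overlapped. The log2 difference there was 0.66 ± 0.29 (limma adjusted p = 0.594). It stood at 0.09 without spleen WT replicate 2 and at 1.22 without replicate 3, so it rested on 1 library. VAT minus spleen was 3.41 ± 0.26 in KO and 4.85 ± 0.26 in WT. The KO value contains the lower level in VAT KO and the spleen KO mean of 3.86 RPKM, against 2.30 RPKM in spleen WT. The interaction, the effect of KO in VAT minus that in spleen, stood at -1.44 ± 0.37 for Adam8, and is given as a description.

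Adam19, also called meltrin beta, is a membrane protease known for shedding neuregulin (Entrez 11492; chromosome 11, 46054502 to 46147347). It had 61.3, 47.6 and 47.9 RPKM in VAT KO and 48.1, 47.8 and 62.8 RPKM in VAT WT. In spleen it had 21.1 and 16.7 RPKM in KO and 12.96 and 21.3 RPKM in WT. Tissue separated all libraries, as was the case in this direction for 20% of tested genes in KO and 18.1% in WT. Genotype separated none. VAT minus spleen was 1.42 ± 0.22 in KO and 1.60 ± 0.22 in WT (log2, SE). KO minus WT was -0.02 ± 0.19 in VAT, with a 95% interval from -0.44 to 0.41 (limma adjusted p = 0.9995), and 0.16 ± 0.24 in spleen (limma adjusted p = 0.827). Of the merged exon length of Adam19, 8.25% and 6.75% overlap the antisense genes Gm16033 and Gm16034, whose reads could not be told apart since the library kit keeps no strand.

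Adam10 encodes the sheddase that starts Notch cleavage (Entrez 11487; chromosome 9, 70678944 to 70780229). It had 26.3, 43.6 and 24.4 RPKM in VAT KO and 34.5, 33.7 and 37.3 RPKM in VAT WT. In spleen it had 39.5 and 38.0 RPKM in KO and 23.5 and 42.5 RPKM in WT. All 4 groups overlapped with at least 1 other, and the spread within VAT KO and within spleen WT was wider than any difference between group means. KO minus WT was -0.20 ± 0.23 in VAT, with a 95% interval from -0.70 to 0.30 (limma adjusted p = 0.981), and 0.28 ± 0.28 in spleen (limma adjusted p = 0.754). VAT minus spleen was -0.34 ± 0.26 in KO and 0.15 ± 0.26 in WT.

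Adam17, also called TACE, encodes the enzyme that releases tumour necrosis factor (Entrez 11491; chromosome 12, 21323509 to 21373632). It had the narrowest range of the 6 genes, with 9.53, 9.002 and 9.12 RPKM in VAT KO and 8.68, 8.63 and 10.1 RPKM in VAT WT. In spleen it had 12.97 and 10.8 RPKM in KO and 12.1 and 12.9 RPKM in WT. Every VAT library lay below every spleen library, by a small margin: VAT minus spleen was -0.33 ± 0.17 in KO and -0.42 ± 0.17 in WT. Groups did not overlap in this direction for 30.4% of tested genes in KO and for 31% in WT. KO minus WT was 0.02 ± 0.15 in VAT, with a 95% interval from -0.31 to 0.34 (limma adjusted p = 0.9995), and -0.07 ± 0.19 in spleen (limma adjusted p = 0.902). Of its merged exon length, 4.35% overlaps Iah1 on the other strand.

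Timp2 encodes a secreted inhibitor of matrix metalloproteinases (Entrez 21858; chromosome 11, 118301061 to 118355411). It ran opposite to Mmp9 and Adam8 between the tissues, and its genotypes were ordered oppositely in fat and in spleen. It had 12.6, 18.4 and 17.6 RPKM in VAT KO and 6.66, 6.74 and 7.76 RPKM in VAT WT. In spleen it had 33.6 and 31.0 RPKM in KO and 40.8 and 49.0 RPKM in WT. No groups overlapped, and their order by level was VAT WT, VAT KO, spleen KO and spleen WT. The means were 16.2 ± 3.11 RPKM in VAT KO and 7.06 ± 0.62 RPKM in VAT WT (SD, n = 3 each), and 32.3 ± 1.77 RPKM in spleen KO and 44.9 ± 5.81 RPKM in spleen WT (SD, n = 2 each).

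As differences on the log2 scale, with no test, KO minus WT for Timp2 was 1.08 ± 0.17 in VAT and -0.46 ± 0.20 in spleen. Their difference, the interaction, was 1.54 ± 0.26. VAT minus spleen was -0.97 ± 0.19 in KO and -2.51 ± 0.19 in WT, so the gap between the tissues was narrower in KO. Of tested genes, 1.34% had groups that did not overlap in both tissues with KO above WT in VAT and below it in spleen. The VAT difference stayed between 0.80 and 1.24 and the spleen difference between -0.59 and -0.33 over all alternatives tried. Cep295nl lies within the Timp2 span without sharing exons.

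Markers of other cells were compared between the same groups as Timp2. The 4 measured myeloid markers (Csf1r, Ctss, Adgre1 and Fcer1g) summed to 20.25, 45.6 and 45.4 RPKM in the VAT KO libraries, while the VAT WT libraries had 13.98, 15.2 and 12.3 RPKM. In spleen the sums were 183 and 186 in KO and 241 and 179 in WT. Ctss, singled out after its values were seen, made up most of these sums. It was higher in VAT KO by 1.31 ± 0.25 on the log2 scale (limma adjusted p = 0.0449), a threshold that 0.422% of all tested genes passed in VAT. That call was lost in 11 of 20 alternatives, among them without any 1 of the VAT WT libraries, VAT KO replicate 2 or 3 or either spleen KO library, with adjusted p between 0.00353 and 0.263. None of the other 2 tested myeloid markers passed. Of 10 markers of stroma and endothelium only Pecam1, an adhesion protein of endothelium that leukocytes also express, had a row. Pecam1 had 8.80, 11.8 and 10.7 RPKM in VAT KO libraries and 5.12, 4.39 and 7.37 in VAT WT libraries (limma adjusted p = 0.435). In spleen it had 34.9 and 19.3 in KO and 15.9 and 31.4 in WT. Across the 4 groups the myeloid sum and Pecam1 were lowest in VAT WT, as Timp2 was, and in spleen their genotypes overlapped. Ctss means stood in the same order as those of Timp2. They were 12.9 RPKM in VAT WT, 35.3 in VAT KO, 182 in spleen KO and 206 in spleen WT. Csf1r and Adgre1 means also stood in that order, at no more than 1.31 RPKM. Fcer1g means did not, at 1.46 RPKM in VAT KO and 1.06 in spleen KO. The part of these markers in the Timp2 values was not tested. Lipe, the only 1 of 6 adipocyte markers with a row, stayed between 1.63 and 3.40 RPKM in every library, and no B cell marker passed between genotypes (0 of 6, limma), with all 6 below 0 in VAT and a median of -0.54 there.

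**Figure D2:**
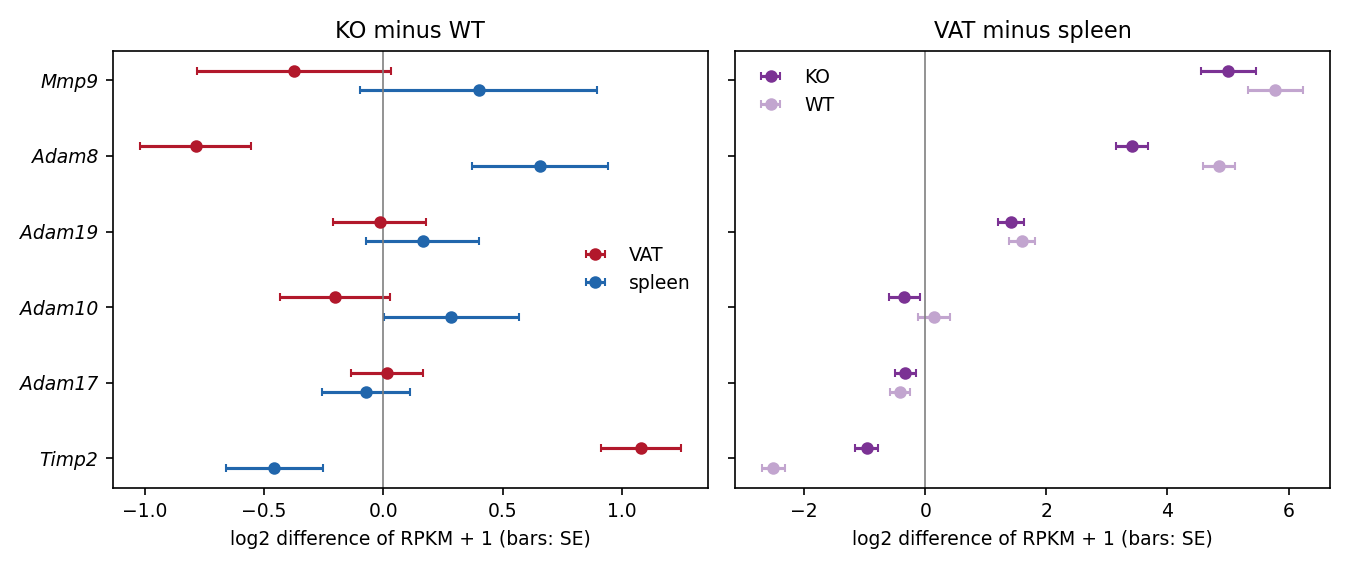
Log2 differences of RPKM + 1 for the 6 measured genes, as KO minus WT in VAT and in spleen (left) and as VAT minus spleen in KO and in WT (right), with standard errors from limma. Timp2 lay above 0 in VAT and below 0 in spleen on the left, and Mmp9 and Adam8 had the largest positive differences on the right.

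Counted over the set, 0 of the 5 genes other than Timp2 passed between genotypes in VAT or in spleen (limma, adjusted p under 0.05), and 1 of 5, Adam8, had an unadjusted p under 0.05 in each tissue. In the whole table, 0.422% of tested genes were called in VAT and 0% in spleen. Timp2 was left out of this count, because its choice used the difference between the tissues in this effect. Between the tissues, 4 of 6 genes were past the threshold in KO, where 14.6% of all tested genes were, and the same 4 were in WT, where 26.1% were: Mmp9, Adam8 and Adam19 higher in VAT and Timp2 lower. Since the set was chosen with this contrast in view, nothing is read from these counts. The median difference of all tested genes was -0.09 in KO and -0.12 in WT, and scaling by median ratios moved it to -0.01 in KO and to 0.01 in WT. The 4 genes kept their directions under every scaling tried. No gene of the table was past the threshold for the interaction (0%, with 738 at an unadjusted p under 0.05).

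Mmp9 per Timp2 was calculated in each library as a ratio of RPKM, as a plain description of protease and inhibitor transcripts. It was 10.7, 6.29 and 6.37 in VAT KO and 19.3, 32.2 and 17.6 in VAT WT. In spleen it was 0.115 and 0.0629 in KO and 0.0095 and 0.101 in WT. The transcripts of the protease outnumbered those of the inhibitor in every VAT library, and those of the inhibitor outnumbered the protease in every spleen library. The mean ratio was 7.79 ± 2.52 in VAT KO and 23.1 ± 7.96 in VAT WT (SD, n = 3 each). These groups did not overlap in the ratio, while Mmp9 alone overlapped between them. Both genes were chosen by values of these libraries, so nothing is read from the separation of genotypes or of tissues. Both the lower Mmp9 mean and the higher Timp2 level in VAT KO enter this ratio, and RNA ratios say nothing of active enzyme.

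**Figure D3:**
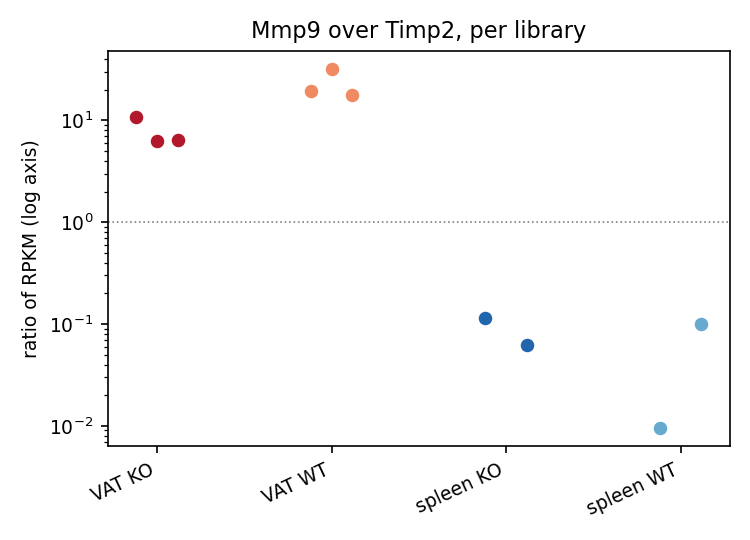
Ratio of Mmp9 to Timp2 RPKM in each library on a logarithmic axis, by group, with a dotted line at 1. The VAT KO libraries lay between 6.29 and 10.7, below the VAT WT libraries at 17.6 to 32.2, and all spleen libraries lay below 1. Both genes were chosen by values of these libraries.

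Other members of the same families were mostly missing or low. Of 66 further metalloproteinase, ADAM, ADAMTS, TIMP and Reck genes looked up, 13 had a row and 10 were tested. None passed between genotypes in VAT or in spleen (limma), with 2 at an unadjusted p under 0.05 in each tissue, a level that 7.35% of all tested genes reached in VAT and 8.37% in spleen. Their median log2 difference was 0.07 in VAT and 0.12 in spleen, against 0.02 and -0.03 over all tested genes. Mmp25, a membrane-anchored matrix metalloproteinase of leukocytes, came nearest, with 1.41, 1.61 and 4.16 RPKM in VAT KO and 10.7, 6.68 and 8.27 RPKM in VAT WT. Its groups did not overlap, as was the case in this direction for 6.16% of tested genes. Its log2 difference of -1.56 ± 0.31 narrowly missed the threshold (limma adjusted p = 0.0554). Under the alternatives its adjusted p ranged from 0.0123 to 0.441, and it passed in 7 of them, among them with the VAT libraries alone (0.0441), without spleen WT replicate 2 (0.0382) and without replicate 3 (0.0370). In spleen Mmp25 stood at no more than 0.571 RPKM in any library.

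Adamts10, a protease that acts on microfibrils, was the highest of these further genes, at 19.1 ± 0.37 RPKM in VAT KO and 18.1 ± 1.28 RPKM in VAT WT (SD, n = 3 each), and at 18.04 ± 2.03 in spleen KO and 18.6 ± 4.03 in spleen WT (SD, n = 2 each). Adamts6 averaged 2.79 ± 0.26 RPKM in VAT KO and 1.47 ± 0.33 RPKM in VAT WT (log2 difference 0.62 ± 0.20, limma adjusted p = 0.375). Mmp14, the membrane protease with which TIMP2 activates MMP2, reached no more than 2.86 RPKM, and Mmp11 no more than 2.55. Reck, a membrane-bound inhibitor of metalloproteinases, averaged 2.75 ± 1.18 RPKM in VAT KO and 2.32 ± 0.49 RPKM in VAT WT. Adam15, Adam9, Adam28 and Adam33 stayed at or below 4.96 RPKM in every library. Mmp11 lay at or below 0.318 RPKM in VAT, and Adam33 at or below 0.240 RPKM in spleen.

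Partners that carry, fold or activate ADAM10 and ADAM17 were measured for 7 of 13 genes looked up. None passed between genotypes in VAT or in spleen (limma), with 0 and 2 at an unadjusted p under 0.05, against 7.35% and 8.37% of all tested genes, and their median was -0.12 in VAT and 0.32 in spleen. Frmd8, which binds the iRhom proteins that hold ADAM17 at the surface, was the highest, at 55.1 ± 7.25 RPKM in VAT KO and 48.1 ± 2.597 RPKM in VAT WT (SD, n = 3 each). Tspan14, a tetraspanin that escorts ADAM10, averaged 30.4 ± 4.75 RPKM in VAT KO and 28.5 ± 5.06 RPKM in VAT WT. Tspan17, of the same group of tetraspanins, had 11.99, 9.22 and 10.2 RPKM in VAT KO and 18.8, 19.9 and 12.5 RPKM in VAT WT. Its groups did not overlap, as was the case in this direction for 6.16% of tested genes. The log2 difference of -0.64 ± 0.31 did not pass (limma adjusted p = 0.713). In spleen Tspan17 had 0.983 and 2.01 RPKM in KO and 7.13 and 2.30 RPKM in WT. That log2 difference of -1.08 ± 0.38 did not pass either (limma adjusted p = 0.582). Rhbdf2, the iRhom of immune cells, averaged 3.56 ± 1.09 RPKM in VAT KO and 4.42 ± 1.01 RPKM in VAT WT. Between the tissues, Tspan17 was higher and Frmd8 lower in VAT in KO, and in WT Furin, which removes the inhibitory part of these proteases, was higher too (limma, adjusted p under 0.05). That made 2 of 7 in KO, against 14.6% of all tested genes, and 3 of 7 in WT, against 26.1%.

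Of 17 genes looked up as candidates for shedding of their proteins by ADAM10 or ADAM17, 15 were tested at the RNA level. None passed between genotypes in VAT or in spleen (limma), with 4 and 1 at an unadjusted p under 0.05, against 7.35% and 8.37% of all tested genes, and their median was 0.11 in VAT and -0.05 in spleen. Il6ra, the interleukin 6 receptor that is shed into a soluble form, had 3.995, 7.01 and 4.23 RPKM in VAT KO and 2.69, 3.17 and 3.04 RPKM in VAT WT. Every VAT KO library lay above every VAT WT library, as was the case for 8.97% of tested genes, and the log2 difference of 0.58 ± 0.22 did not pass (limma adjusted p = 0.508), and stood at 0.37 without VAT KO replicate 2. Fasl, the death ligand of T cells, had 8.10, 18.02 and 21.3 RPKM in VAT KO and 2.62, 8.10 and 8.15 RPKM in VAT WT, a log2 difference of 1.23 ± 0.39 (limma adjusted p = 0.363). The genotypes overlapped narrowly for Fasl, and its difference was 0.78 without VAT WT replicate 1. With the replicate number as a block Fasl passed (limma adjusted p = 0.0247). Cd44, the hyaluronan receptor that can hold MMP9 at the cell surface, stood at -0.52 ± 0.18 (limma adjusted p = 0.443).

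Areg, which encodes amphiregulin, an EGF receptor ligand that ADAM17 releases, was the most abundant of these substrates in VAT, at 511 ± 27.3 RPKM in VAT KO and 578 ± 82.2 RPKM in VAT WT (SD, n = 3 each), and at 3.70 ± 1.86 in spleen KO and 4.87 ± 0.80 in spleen WT (SD, n = 2 each). Tnfrsf1b, the TNF receptor of Tregs, averaged 129 ± 22.1 RPKM in VAT KO and 134 ± 17.9 RPKM in VAT WT. Between the tissues, 3 of the 15 genes were higher and 3 lower in VAT in KO, and 5 were higher and 4 lower in WT (limma). In KO 7.65% of all tested genes were higher and 6.94% lower, and in WT 10.7% and 15.4%.

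Receptors with which T cells hold on to matrix and to other cells were all measured, 15 of 15. None passed between genotypes in VAT or in spleen (limma), with 5 and 0 at an unadjusted p under 0.05, against 7.35% and 8.37% of all tested genes, and their median was -0.003 in VAT and -0.005 in spleen. Itgae, the CD103 chain that binds E-cadherin, had 5.31, 10.9 and 7.49 RPKM in VAT KO and 2.68, 0.981 and 3.77 RPKM in VAT WT, without overlap. In VAT, every KO library lay above every WT library for 8.97% of tested genes. The Itgae log2 difference of 1.40 ± 0.30 missed the threshold (limma adjusted p = 0.0917) and passed with sample weights (0.0463). Itgb1, the beta chain of many matrix receptors, averaged 145 ± 8.80 RPKM in VAT KO and 90.3 ± 35.4 RPKM in VAT WT (log2 difference 0.75 ± 0.22, limma adjusted p = 0.315), and passed without VAT WT replicate 3 (1.03, limma adjusted p = 0.0434). Without VAT WT replicate 2 the Itgb1 difference was 0.45 (limma adjusted p = 0.605). Itgb7, the chain of gut and mucosal homing integrins, was the highest of the 15, at 405 ± 27.3 RPKM in VAT KO and 483 ± 29.96 RPKM in VAT WT, followed by Itgb2, the leukocyte integrin chain, at 171 ± 15.4 and 171 ± 8.95. Between the tissues, 4 were higher and 2 lower in VAT in KO, and 6 were higher and 3 lower in WT (limma). Of all tested genes, 7.65% were higher and 6.94% lower in KO, and 10.7% and 15.4% in WT.

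**Figure D4:**
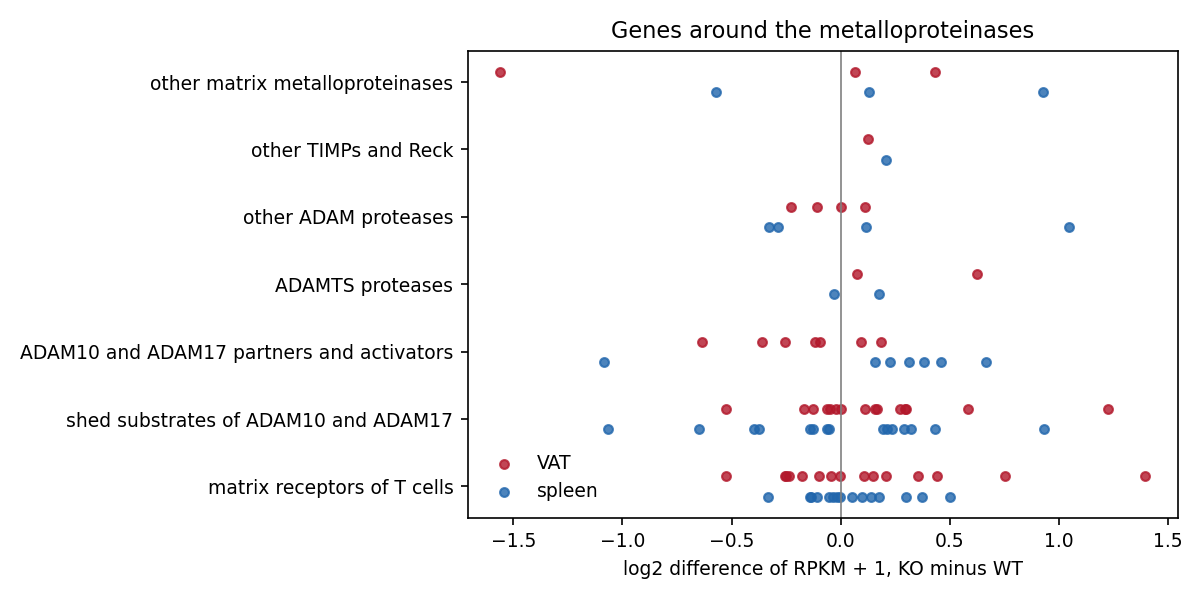
Log2 difference of RPKM + 1, KO minus WT, for each tested gene of the further lists (points), in VAT and in spleen. Points lay on both sides of 0 in most lists, with Mmp25 the lowest at -1.56 and Itgae the highest at 1.40, both in VAT, and no point passed the threshold.

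The genes most like Mmp9 and Timp2 were sought by the root mean square difference of log2 values, centred on each gene's own mean, over the 10 libraries. Candidates were 7443 tested genes with a highest group mean of at least 5 RPKM. Nearest to Mmp9 was Cxcr6, a chemokine receptor of tissue T cells, at a distance of 0.34 log2 units, with means of 201 RPKM in VAT KO, 254 in VAT WT, 6.17 in spleen KO and 2.86 in spleen WT. It was followed by Fgl2, a secreted suppressor molecule of Tregs, at 0.43, Il1rl1 at 0.55, Nr4a1, a nuclear receptor induced by T cell receptor signals, at 0.58, and Cxcl3, a chemokine for neutrophils, at 0.61. All 5 had their highest mean in VAT WT.

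Nearest to Timp2 was Ms4a4b, a membrane protein of T cells, at 0.19 log2 units. Its means were 60.4 RPKM in VAT KO, 26.7 in VAT WT, 123 in spleen KO and 143 in spleen WT. The distance is not scaled to the size of a gene's differences, which between tissues were larger for Mmp9. Distances to Timp2 and to Mmp9 are therefore not compared. Next were Btla, an inhibitory receptor, and Ms4a6b, each at 0.21, Fas, the death receptor, at 0.24, and Gm8369 at 0.25. All 5 were lowest in VAT WT and higher in VAT KO, which their choice by likeness brings with it. The Ms4a genes belong to a family of similar copies, and how reads were assigned among them was not tested.

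**Figure D5:**
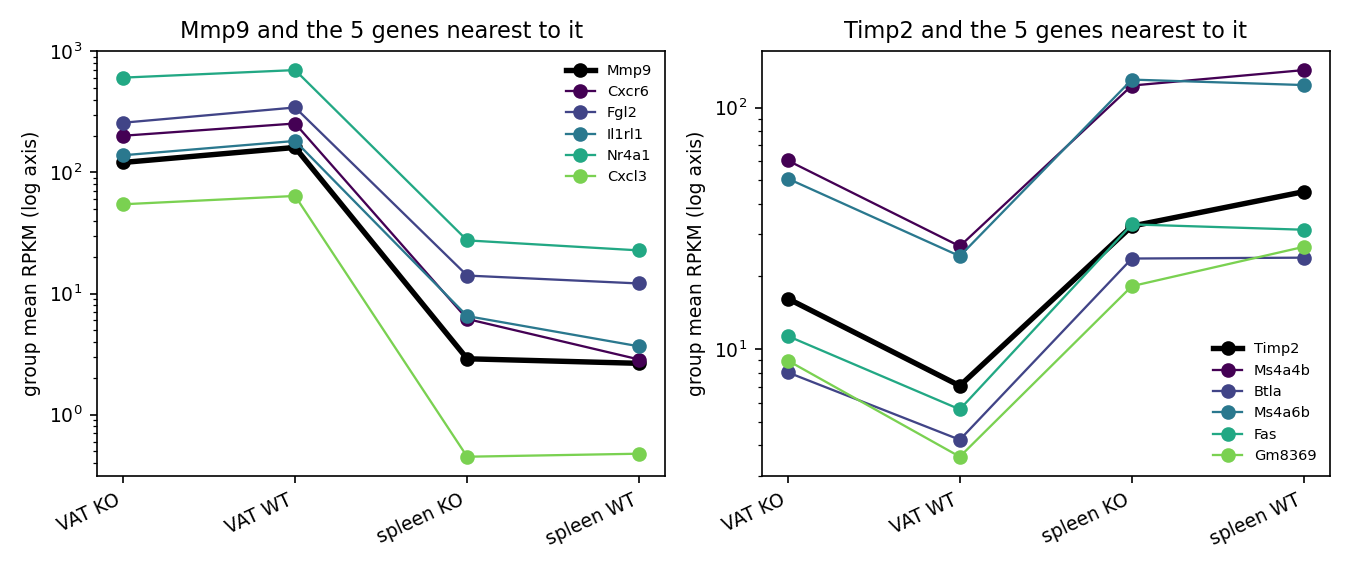
Mean RPKM by group on a logarithmic axis for Mmp9 (left) and Timp2 (right) as thick lines, with the 5 genes nearest to each. The genes near Mmp9 were more than 10-fold higher in both VAT groups than in both spleen groups, and those near Timp2 had their lowest mean in VAT WT.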

How the data were processed

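Per the labels' protocols, RNA of sorted cells was copied with SMART-seq v4 and made into libraries with Nextera XT, a preparation without strand information. STAR and the mm10 build are named in the submitters' processing notes. The authors deposited 1 table of RPKM values, per the file headers. Not given in the sources used here are the read counter, gene models, filter and scaling denominator. Depth is unknown, so no counting error is given.

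Of 11 samples in the labels, 10 have a column under their title. Spleen KO replicate 1 was not analysed here, and 1 column that matches no labelled sample was not used. The planned design had assumed all 11.

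Values were analysed as log2(RPKM + 1) over 10429 genes with at least 1 RPKM in at least 2 samples. limma 3.58.1 in R 4.3.3 was fitted once to the 4 group means (trend on, robust off; 6 residual and 6.44 prior degrees of freedom). Tests were two-sided, with Benjamini-Hochberg adjusted p over all tested genes and a threshold of 0.05. The fit was checked on simulated data. Entrez identifiers were found in RefSeq for 10987 genes, and exon overlaps came from GENCODE.

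The members and lists were chosen with earlier results of these data known. Named from each further list were any gene past the threshold between genotypes, the 3 with the smallest p in VAT and the 2 with the highest mean. An item of the shed protein list is not reported here. Alternatives varied the pseudocount (0.1 or 5), the filter (none, or a mean of at least 5 RPKM), the scaling (quantile or median ratio), the samples fitted (compared groups alone, or 1 library left out) and the model (sample weights, robust spread, replicate number as block).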

Additional observations from a re-analysis of the deposited data

Results flagged for a closer look

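Timp2 differed between the tissues in the direction of the genotype difference: all 3 VAT KO libraries lay above all 3 VAT WT libraries, while both spleen KO libraries lay below both spleen WT libraries. Of tested genes, 1.34% had this pattern. The difference between the log2 effects was 1.54. It was not tested, because Timp2 was chosen for it, and no gene passed the threshold for this comparison over all 10429 genes (limma).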

How the results depend on the processing

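Of 772 values of named genes under alternatives, 703 kept their direction and side of the threshold or, where no test was made, moved by less than the spread between replicates. Some alternatives could not move a difference: that of Timp2 in VAT stays at 1.08 when a spleen library is left out. Part of this tally was therefore fixed in advance. In VAT, KO against WT, 0 of the 5 genes other than Timp2 were past the threshold. This count was 1, Adam8, with sample weights or with the compared groups alone, and ranged from 0 to 1 with 1 library left out, with 1 without either spleen WT library. The number of all genes called in VAT, 44, fell to 2 without VAT KO replicate 3 or VAT WT replicate 1, to 5 without VAT KO replicate 2, to 20 with a pseudocount of 5, and to 19 without either spleen KO library, and was 83 with sample weights. In spleen the count stayed at 0 in 19 of 20 alternatives. The exception was the fit without spleen WT replicate 3, where the difference was 1.45 for Mmp9 and 1.22 for Adam8. Fits without a spleen WT library leave 1 spleen WT sample, which is assumed to vary like the other groups, so no count is read from that exception.

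The reversals among the differences between genotypes were these. Adam17 in VAT turned to -0.02 with quantile normalization (-0.0245) and with median ratio scaling (-0.0219), and with 1 library left out it ranged from -0.0197 to 0.0809. Leaving out 1 library, Adam19 ranged from -0.133 to 0.112 in VAT and from -0.172 to 0.502 in spleen. In spleen Mmp9 ranged from -0.648 to 1.447, Adam10 from -0.131 to 0.700, and Adam17 from -0.197 to 0.050. Some values given as descriptions also crossed 0 with 1 library left out. VAT minus spleen in WT ranged from -0.269 to 0.562 for Adam10. The interaction ranged from -1.82 to 0.275 for Mmp9, from -0.035 to 0.212 for Adam17 and from -0.517 to 0.157 for Adam19. The cause was not tested.

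The deviations of same-numbered KO and WT libraries correlated at -0.0917, 0.049 and -0.147 in VAT and at -0.0612 in spleen. Those of same-numbered VAT and spleen libraries, over replicates 2 and 3, correlated at 0.029 in KO and at 0.156 in WT. The labels do not say that a number marks a shared mouse, so the libraries were treated as sharing only a number. With the replicate number as a block, 0 of the 5 genes and 39 of all genes were past the threshold in VAT, and Fasl passed (1.23, limma adjusted p = 0.0247). The unknown read depth leaves the counting error of low values, such as Mmp9 and Adam8 in spleen, unstated.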
